A study of Mus musculus with 8 samples.

Results

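The complement system was followed through brown adipose tissue by 34 genes, chosen by symbol from the 54532 genes of the deposited table: the components of the classical, lectin, alternative and terminal pathways, the receptors for their products and the proteins that restrain them. All 34 had a row in the table. The tissue came from 4 wild-type mice (WT) and 4 labelled TG (CLCF1-ATG), read here as transgenic for the cytokine CLCF1, numbered 1, 2, 3 and 5 in each group. Each library is taken as 1 mouse, and p-values measure the spread between these libraries. The sources used here do not give the promoter that drives the transgene or the strain, age and sex of the mice. The comparison asked how the complement genes of this heat-producing fat stood in the transgenic mice.

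Complement is a cascade of plasma and tissue proteins that marks targets for uptake, recruits leukocytes and can pierce membranes. The classical pathway starts when C1q binds a target and its partner proteases C1r and C1s cut C4 and C2; the lectin pathway reaches the same step through collectins, ficolins and the MASP proteases, and the alternative pathway amplifies C3 cleavage through factor B, factor D and properdin. Most of the circulating proteins are made by the liver, but adipocytes are the main source of factor D, known as adipsin, and tissue macrophages are the main source of C1q.

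The transgenic label was borne out by Clcf1 itself, which ran from 0.434 to 3.40 FPKM in WT and from 78.7 to 89.9 FPKM in TG (log2 change 4.87, SE 0.297, limma adjusted p = 3.66e-06). FPKM are fragments per kilobase of gene over a library divisor, as deposited; that divisor is not the sum of the recovered reads, which was 1.02 to 1.22 times it in WT and 0.822 to 0.883 times it in TG, so the deposited scaling and division by all reads shift the groups against each other. A log2 change below is the TG mean less the WT mean of log2(FPKM + 1), a scale that shrinks the changes of genes with low FPKM. Between 13734231 and 15751302 reads were recovered for each WT mouse and between 18494022 and 20183840 for each TG mouse. Markers of brown adipocytes were present in all libraries, summing to 6912 to 9803 FPKM in WT and 615 to 1025 FPKM in TG over 7 genes. Of these 7 genes 6 were called lower in TG, 0 higher, and 1 did not pass (5 lower when divided by all recovered reads). Skeletal muscle genes stood highest in WT library 2 (2018 FPKM summed over 6 genes) and TG library 5 (1081 FPKM), against 10.4 to 157 and 95.6 to 175 FPKM in the other libraries of each group. Without those 2 libraries 1 member changed its call, Cfp, described below. Dividing by all recovered reads moved the median log2 change of all tested genes from 0.01 to 0.32, with 5536 genes higher and 1442 lower against 2788 and 2725 with the deposited FPKM, so small changes depend on the scaling.

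The filter, 0.5 FPKM or more in 4 or more libraries, was met by 24 of the 34 members and missed by 10. In limma 12 of the 24 rose, 2 fell and 10 did not pass an adjusted p of 0.05. Over all 12508 tested genes 44.1% were called, 22.3% higher and 21.8% lower, so the members' share of higher calls stood above the background and their share of lower calls (8.33%) below it. By arm of the cascade, 3 of 6 tested genes of the C1 complex rose, as did 1 of 2 in the lectin pathway, all 3 of C4, C2 and C3, both of the alternative pathway, 3 of 5 regulators, 0 of 5 receptors and 0 of 1 terminal component. The difference between these shares was not tested. The median log2 change was 0.56 over the tested members and 0.01 over all tested genes. Cfi reached the filter only through the TG libraries and therefore had to differ; without it 11 of 23 rose and the median was 0.45. The 4 TG values lay above all 4 WT values in 11 of the tested members and below them in 2, against 22.1% and 20.5% of all tested genes. In whole tissue, fewer cells of a type and less RNA per cell cannot be told apart, and the same holds for more cells and more RNA per cell.

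**Figure D1:**
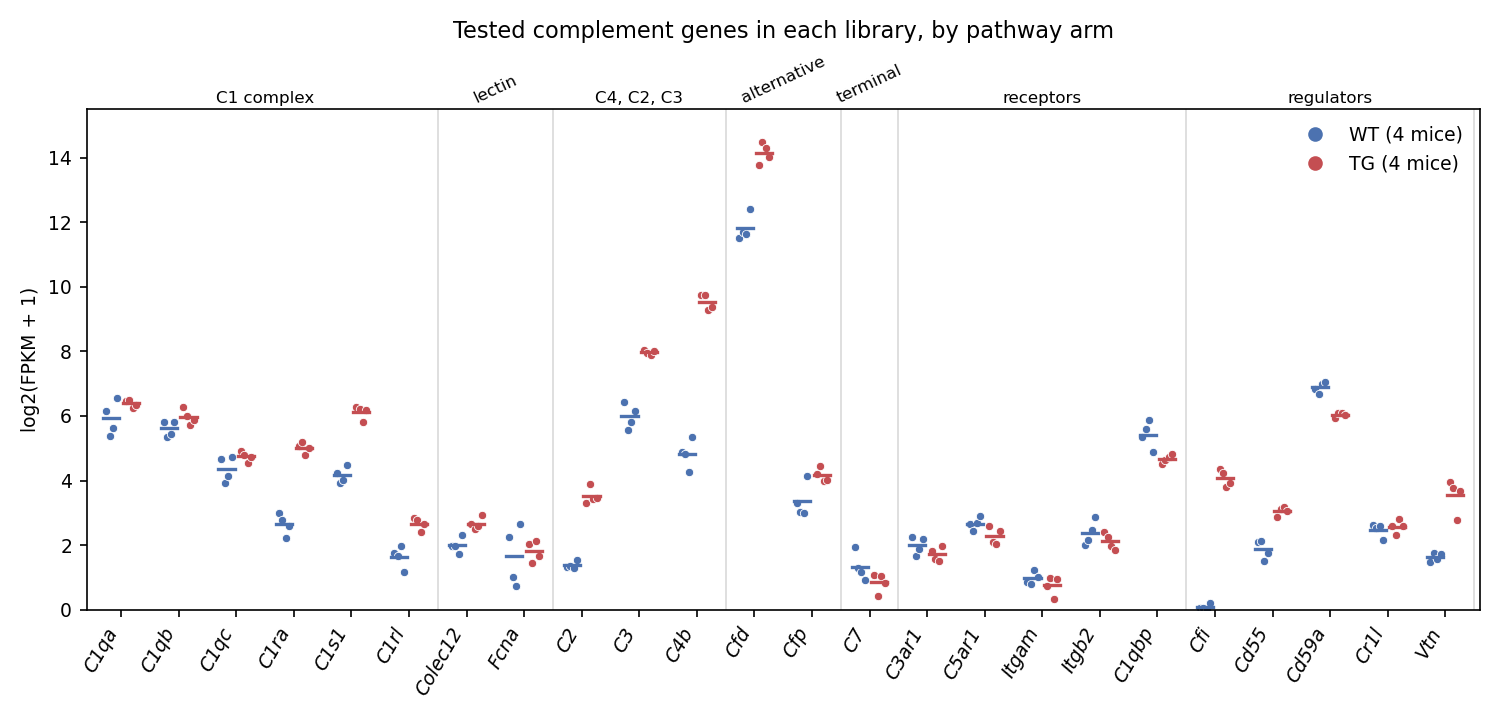
Level of each of the 24 tested complement genes in each library, as log2(FPKM + 1), with genes ordered by pathway arm; dots are mice (4 WT, 4 TG) and lines are group means. The values of C4b, C3, C2, Cfd and Cfi lie apart between the groups, whereas those of the C1q genes and of most receptors overlap.

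**Figure D2:**
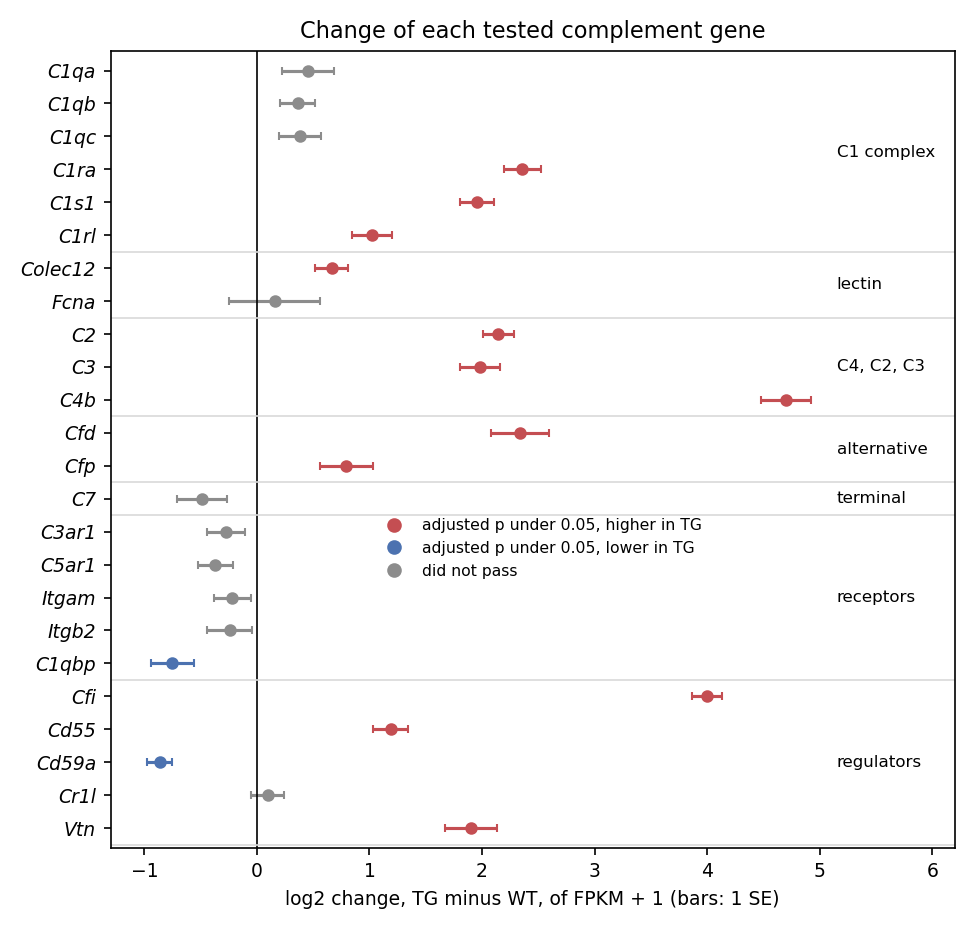
Log2 change (TG minus WT, of FPKM + 1) of the same 24 genes with 1 standard error, coloured by whether the adjusted p was under 0.05. The 12 genes that rose run from 0.66 for Colec12 to 4.70 for C4b, and the 2 that fell are Cd59a and C1qbp.

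Within the C1 complex the proteases rose and the recognition subunits did not pass the test. C1ra, which encodes the protease activated when C1q binds (ENSMUSG00000055172, chromosome 6, 124512405 to 124523443, plus strand), stood at 7.005, 5.91, 3.71 and 5.10 FPKM in WT 1, 2, 3 and 5 and at 32.4, 35.8, 26.7 and 31.2 FPKM in TG 1, 2, 3 and 5. The lowest TG mouse was well above the highest WT mouse, and the log2 change was 2.36 (SE 0.166, limma adjusted p = 7.48e-06). C1s1, whose product cuts C4 and C2 (ENSMUSG00000038521, chromosome 6, 124530345 to 124542359, minus strand), stood at 18.0, 14.1, 15.2 and 21.2 FPKM in WT and at 77.3, 72.6, 55.4 and 71.0 FPKM in TG, again without overlap (log2 change 1.96, SE 0.152, adjusted p = 1.18e-05). C1rl, a C1r-like protease, ran from 1.25 to 2.97 FPKM in WT and from 4.26 to 6.16 FPKM in TG (log2 change 1.02, adjusted p = 0.00149). Some reads of C1ra cannot be placed with certainty, since 34.5% of its transcripts' 100-base stretches also occur in C1rb, a copy that had 2 reads over the WT group and 16 over the TG group.

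The 3 chains of C1q are encoded side by side on chromosome 4 and are assembled together into one protein. C1qa stood at 70.4, 40.6, 48.9 and 92.9 FPKM in WT and at 88.2, 88.9, 75.1 and 79.4 FPKM in TG. The WT mice spread widely and the highest WT mouse, WT 5, was above all TG mice. The log2 changes were 0.45 for C1qa (SE 0.229, limma adjusted p = 0.135), 0.36 for C1qb (SE 0.158, adjusted p = 0.0891) and 0.38 for C1qc (SE 0.186, adjusted p = 0.122). WT library 5 decided part of this, since without it C1qa and C1qc were called higher (log2 change 0.66, adjusted p = 0.0158, and 0.51, adjusted p = 0.0435). When values were divided by all recovered reads, all 3 were called higher (log2 changes of 0.88, 0.78 and 0.80 against the median of 0.32 for all genes). The chains kept much the same proportions, with C1qa at 2.87 to 3.61 times C1qc in WT and at 3.03 to 3.33 times in TG.

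Macrophages are the cells known for making C1q, and their markers gave mixed calls. Of 12 macrophage markers 11 were tested, of which 5 rose, 1 fell and 5 did not pass. The 1 that fell reached the filter only through the WT libraries and therefore had to differ, so its call adds no support. The summed level of the markers was 139 to 220 FPKM in WT and 245 to 287 FPKM in TG, and none was at 0 in all libraries. Lyz2, a lysozyme gene, rose (150 ± 29.8 against 215 ± 13.3 FPKM; SD, n = 4 each), as did Mrc1, the mannose receptor gene (4.89 ± 1.36 against 11.2 ± 2.20 FPKM). The count of macrophage markers that rose depended on single libraries: it was 3 without TG 1, 4 without any one of WT 2, WT 3, TG 2, TG 3 and TG 5, and 1 without WT 2 and TG 5 together. Lyz2 lost its call without TG 5 (adjusted p = 0.0537) and without WT 2 and TG 5 (0.0998). Cd68, at 11.6 ± 1.57 and 8.65 ± 1.92 FPKM, did not pass. The summed FPKM of the 3 C1q genes was 0.528 to 0.793 of the macrophage sum in WT and 0.588 to 0.706 in TG, so this proportion overlapped between the groups. Lyz2 alone made up most of the macrophage sum, whose means were 189 FPKM in WT and 266 FPKM in TG. The part of macrophages in the C1q values was not tested.

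C4b, C2 and C3, whose products form the C3 convertase of the classical pathway and its substrate, all rose. C4b, a form of complement C4 (ENSMUSG00000073418, chromosome 17, 34728380 to 34743882, minus strand), stood at 28.8, 27.2, 18.3 and 39.5 FPKM in WT and at 861, 856, 616 and 660 FPKM in TG. The groups were far apart, with a mean 26.3-fold higher in TG, and the log2 change of 4.70 (SE 0.218, limma adjusted p = 1.15e-06) was the largest among the tested members on this scale; with a pseudocount of 0.1 in place of 1, Cfi, described below, stood at 6.76 and C4b at 4.75. C3, the protein at which all 3 pathways meet (ENSMUSG00000024164, chromosome 17, 57203970 to 57228136, minus strand), stood at 85.2, 46.2, 55.7 and 69.8 FPKM in WT and at 263, 246, 234 and 258 FPKM in TG (log2 change 1.98, SE 0.176, adjusted p = 2.56e-05). The TG mice lay close together, all above the highest WT mouse. C2, the protease part of the convertase, stood at 1.51, 1.57, 1.44 and 1.92 FPKM in WT and at 8.88, 13.7, 9.87 and 10.1 FPKM in TG (log2 change 2.14, SE 0.136, adjusted p = 4.69e-06).

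The balance of C4b and C3 differed between the groups. C4b stood at 0.329 to 0.589 of the FPKM of C3 in WT and at 2.56 to 3.48 times it in TG, both being levels per gene length. Leaving Cfd aside, C4b made up 4.32 to 7.49% of the summed FPKM of the members in WT and 48.3 to 54.1% in TG. C4a, the neighbouring C4 gene, which the table lists as a processed transcript, was below the filter, with a WT mean of 0.106 ± 0.0450 FPKM against 0.467 ± 0.114 FPKM for TG (SD, n = 4 each). Of the C4a transcripts' 100-base stretches 13.1% are identical in C4b, so its 262 TG reads may include reads of C4b.

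**Figure D3:**
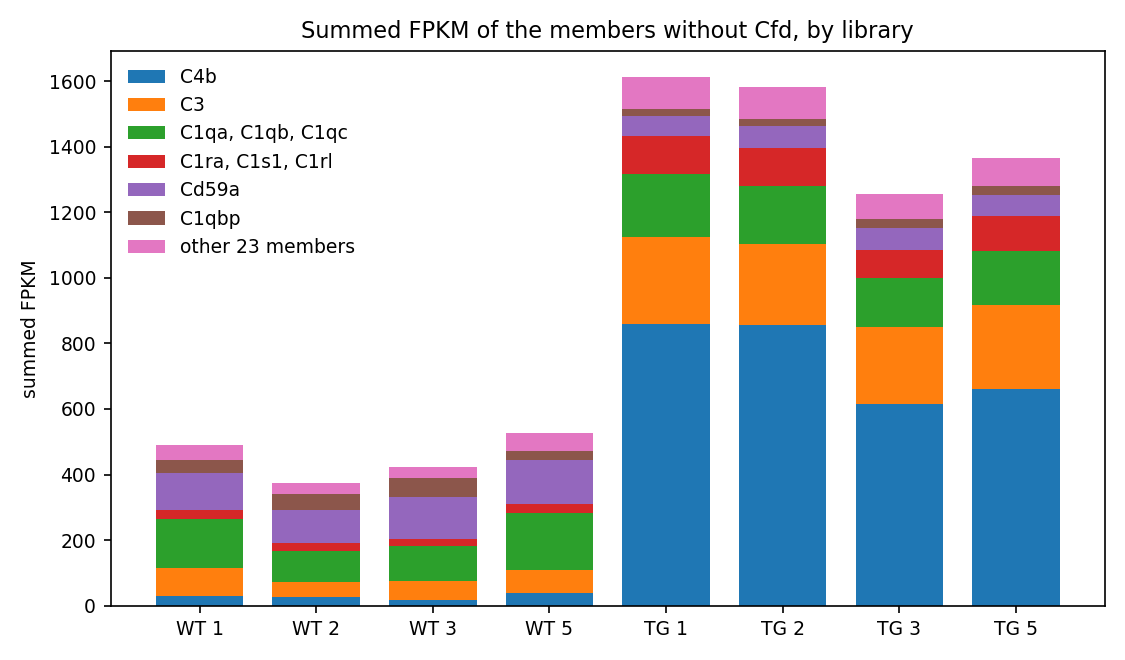
Summed FPKM of the members other than Cfd in each of the 8 libraries, stacked by gene. The WT bars reach 376 to 528 FPKM with Cd59a and the C1q genes as large pieces, and the TG bars reach 1255 to 1612 FPKM with C4b as the largest piece.

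In the alternative pathway the 2 tested members rose, and the third could not be judged. Cfd, which encodes adipsin, the protease that cuts factor B (ENSMUSG00000061780, chromosome 10, 79890853 to 79892655, plus strand), stood at 2908, 3296, 3182 and 5424 FPKM in WT and at 14042, 22779, 20250 and 16708 FPKM in TG. Every TG mouse was above every WT mouse (log2 change 2.34, SE 0.254, limma adjusted p = 8.77e-05). Among all genes of the table it ranked 15 to 22 by FPKM in WT and 1 or 2 in TG, and it took 0.227 to 0.410% of the recovered reads in WT and 1.58 to 2.41% in TG. Reads of the mitochondrial chromosome made up 24.1 to 37.5% of the WT libraries and 6.09 to 7.34% of the TG libraries, and their part in the read shares was not tested.

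Most adipocyte markers moved in the same direction as Cfd. Of 8 such markers 6 rose, 0 fell and 2 did not pass, with summed levels of 2335 to 2856 FPKM in WT and 4999 to 6463 FPKM in TG and none at 0. Adipoq, the adiponectin gene, went from 650 ± 50.4 to 1864 ± 220 FPKM and Cidec, a lipid droplet gene, from 501 ± 42.4 to 1439 ± 210 FPKM (SD, n = 4 each). Cfd stood at 1.11 to 2.32 times the marker sum in WT and at 2.81 to 3.62 times in TG, so the proportion itself did not overlap.

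Cfp, the gene of properdin, which stabilises the alternative convertase, stood at 8.90, 7.24, 7.06 and 16.5 FPKM in WT and at 17.4, 20.7, 15.0 and 15.3 FPKM in TG. WT 5 lay among the TG mice, and the rise (log2 change 0.79, SE 0.236, limma adjusted p = 0.0219) was lost without WT library 2 (adjusted p = 0.0587), WT 3 (0.0566), TG 1 (0.0510) or TG 2 (0.0631). It was also lost without WT 2 and TG 5 together (0.0825) and with no filter (0.0627). Cfb, the gene of factor B, was listed at 0 to 0.240 in WT and 0.216 to 0.485 FPKM in TG, below the filter. In GENCODE M21, 79.5% of the exon bases of Cfb also belong to Gm20547, a same-strand gene model that spans Cfb and C2 and had 0 FPKM in every library. The sources used here do not say how reads over more than 1 gene were counted, so the level of Cfb is uncertain, as is that of C2, with 42.8% of its exon bases shared with that model.

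Recognition genes of the lectin pathway were low. Colec12, a scavenger receptor of the collectin family, rose from 2.94, 2.93, 2.33 and 4.00 FPKM in WT to 5.24, 4.68, 5.05 and 6.57 FPKM in TG, without overlap (log2 change 0.66, SE 0.145, limma adjusted p = 0.00495). Its deposited length, 3322 bases, differs from the 8725 exon bases of GENCODE M21, as do its coordinates, so its FPKM rests on another gene model than that of GENCODE M21. Fcna, the gene of ficolin A, stood at 3.77, 1.03, 0.657 and 5.34 FPKM in WT and at 3.14, 1.72, 3.38 and 2.19 FPKM in TG, with the WT mice spread around the TG mice (adjusted p = 0.777). The proteases Masp1 and Masp2 and the collectin Colec11 stayed below the filter, at up to 0.0488, 0.317 and 0.388 FPKM in any library. Masp2 shares 54.9% of its exon bases with Tardbp on the other strand, and the sources used here do not say whether counting used strand.

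Hc, C6 and C7, the members that help build the membrane attack complex, were low in both groups. Hc, the gene of C5, had 5 reads, all in WT library 5, and 0 in TG, where 3 reads over the group would correspond to 0.00527 FPKM. C6 ran from 0 to 0.491 FPKM in WT and from 0.120 to 0.460 FPKM in TG, below the filter. C7 stood at 2.82, 1.47, 1.24 and 0.914 FPKM in WT and at 1.13, 0.353, 1.05 and 0.783 FPKM in TG, which overlapped (log2 change -0.49, SE 0.224, limma adjusted p = 0.107).

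Receptors for complement fragments did not rise. C3ar1, the C3a receptor, ran from 2.14 to 3.75 FPKM in WT and from 1.83 to 2.95 FPKM in TG (log2 change -0.27, SE 0.165, limma adjusted p = 0.206). C5ar1, the C5a receptor, stood at 5.25, 4.42, 5.39 and 6.42 FPKM in WT and at 5.06, 3.29, 3.13 and 4.38 FPKM in TG, overlapping through TG library 1 (log2 change -0.37, SE 0.153, adjusted p = 0.0765); without that library it was called lower (log2 change -0.47, adjusted p = 0.0364). Itgam and Itgb2, the chains of complement receptor 3, had log2 changes of -0.22 and -0.24 (adjusted p = 0.3201 and 0.358). Itgam shares 68.7% of its exon bases with the same-strand gene model Gm49368, so its level is uncertain. C5ar2, the second C5a receptor, stayed at or below 0.448 FPKM, and Vsig4, a C3b receptor of resident macrophages, had 0 reads in WT and 4 in TG.

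Neutrophils carry C5ar1, Itgam and Itgb2, and the tested markers of these cells were called lower in TG. Of 10 neutrophil markers 4 were tested and all 4 fell, with summed levels over the 10 genes of 13.9 to 399 FPKM in WT and 4.28 to 26.9 FPKM in TG. S100a9 ran from 6.34 to 242 FPKM in WT and from 0.543 to 14.1 FPKM in TG, with TG 1 and TG 5 above the lowest WT mouse. The count of markers that fell was 3 without WT 3, 2 without TG 2 or without TG 3 and 1 without WT 2 and TG 5 together. S100a9 was not called lower without WT 3 (adjusted p = 0.0517), TG 2 (0.0579) or TG 3 (0.0558), nor was S100a8 without TG 2 (0.0541) or TG 3 (0.0558). The part of these cells in the receptor values was not tested.

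C1qbp was the one receptor of the list that fell. It encodes a mitochondrial matrix protein that was named for binding the globular heads of C1q. It stood at 39.4, 47.4, 57.3 and 28.8 FPKM in WT and at 21.7, 23.8, 25.3 and 27.5 FPKM in TG. WT 5 came close to the TG mice without overlapping them, and the log2 change was -0.75 (SE 0.190, limma adjusted p = 0.0101). The call was lost when values were divided by all recovered reads (-0.34, adjusted p = 0.192), when they were rescaled after removal of mitochondrial, haemoglobin and the 20 most abundant genes (-0.38, 0.0810), and with voom (-0.35, 0.162).

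Regulators split into soluble and membrane-bound proteins. Among the soluble ones Cfi, factor I, the protease that cuts C3b and C4b with the help of cofactors (ENSMUSG00000058952, chromosome 3, 129835884 to 129875332, plus strand), stood at 0.0382, 0.0335, 0 and 0.157 FPKM in WT and at 19.3, 17.7, 13.1 and 14.2 FPKM in TG. It was nearly undetected in WT and present in every TG mouse. The WT group held 6 reads and the TG group 3238, a ratio of 297 per unit of library scale (95% exact interval 136 to 810, counting error only), and the limma log2 change was 4.00 (SE 0.135, adjusted p = 2.55e-07). Because Cfi met the filter only through the TG libraries, it had to differ, and this p-value adds no support. Vtn, vitronectin, a plasma and matrix protein that blocks membrane insertion of the attack complex, stood at 1.80, 2.42, 2.001 and 2.32 FPKM in WT and at 14.6, 12.6, 5.82 and 11.9 FPKM in TG (log2 change 1.90, SE 0.232, adjusted p = 0.000175). TG 3 was the lowest TG mouse and still above every WT mouse.

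The membrane-bound regulators moved in different directions. Cd55, decay-accelerating factor, which breaks up C3 convertases, rose from 3.31, 3.42, 1.84 and 2.36 FPKM in WT to 6.37, 7.77, 8.10 and 7.32 FPKM in TG, without overlap (log2 change 1.19, SE 0.155, limma adjusted p = 0.000266). Cd59a, which blocks the attack complex on the cell surface (ENSMUSG00000032679, chromosome 2, 104095801 to 104115354, plus strand), fell from 114, 102, 126 and 133 FPKM in WT to 60.3, 67.2, 66.7 and 63.8 FPKM in TG. All TG mice were below all WT mice (log2 change -0.86, SE 0.111, adjusted p = 0.000239), and the fall was called under every scaling tried, the smallest being -0.44. Cr1l, the rodent convertase inhibitor also called Crry, ran from 3.46 to 5.23 FPKM in WT and from 3.98 to 5.98 FPKM in TG (log2 change 0.10, SE 0.145, adjusted p = 0.623), but it was called higher under the same 3 settings, at 0.45 (adjusted p = 0.0346), 0.41 (0.0281) and 0.54 (0.0203). Cd46, which in the mouse is known mainly from testis, was at or below 0.190 FPKM.

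Beyond the members, other complement genes were tested too. Of 29 such genes 28 were in the table, 8 passed the filter, and all 8 were called, 3 higher and 5 lower. Over all 12508 tested genes 44.1% were called, 22.3% higher and 21.8% lower. The calls of Itgax and Cd59b were lost under many alternatives, as given below. Serping1, the C1 inhibitor, which blocks C1r and C1s, stood at 41.7, 25.6, 22.3 and 30.5 FPKM in WT and at 256, 217, 163 and 217 FPKM in TG (log2 change 2.81, SE 0.202, limma adjusted p = 8.23e-06). The groups did not overlap. Clu, clusterin, which binds the terminal complex, rose from a mean of 12.4 to 780 FPKM (log2 change 5.91, adjusted p = 2.55e-07). Calr, a chaperone of the endoplasmic reticulum that can bind C1q, had a log2 change of 0.96 (adjusted p = 0.000433).

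The 5 that fell were C8g, Cd93, Cpn2, Itgax and Cd59b. C8g, the gamma chain of C8, stood at 15.4, 8.16, 10.48 and 10.4 FPKM in WT and at 2.53, 2.28, 2.20 and 2.19 FPKM in TG (log2 change -1.84, SE 0.162, limma adjusted p = 2.46e-05), whereas its partners C8a and C8b had 0 reads in all 8 libraries. Cd93, an endothelial surface protein once described as a C1q receptor, fell to 2.54 ± 0.992 from 10.6 ± 3.28 FPKM (SD, n = 4 each; change -1.73, adjusted p = 0.000380). Endothelial markers fell beside it in 5 of 5 tested genes (4 without any one of WT 1, TG 1 and TG 3), with sums over 6 genes of 44.5 to 102 FPKM in WT and 10.8 to 22.0 FPKM in TG. Cpn2, a subunit of the carboxypeptidase that inactivates anaphylatoxins, fell by 0.85 on the log2 scale. Itgax and Cd59b had log2 changes of -0.38 and -0.36 (adjusted p = 0.0404 and 0.0395), and both calls were lost without any one of WT 2, WT 3, TG 2, TG 3 and TG 5, that of Itgax also without WT 5 and that of Cd59b also without TG 1 (adjusted p from 0.0642 to 0.103 over these). For Cd59b, dividing by all reads left a log2 change of 0.01 (adjusted p = 0.953).

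**Figure D4:**
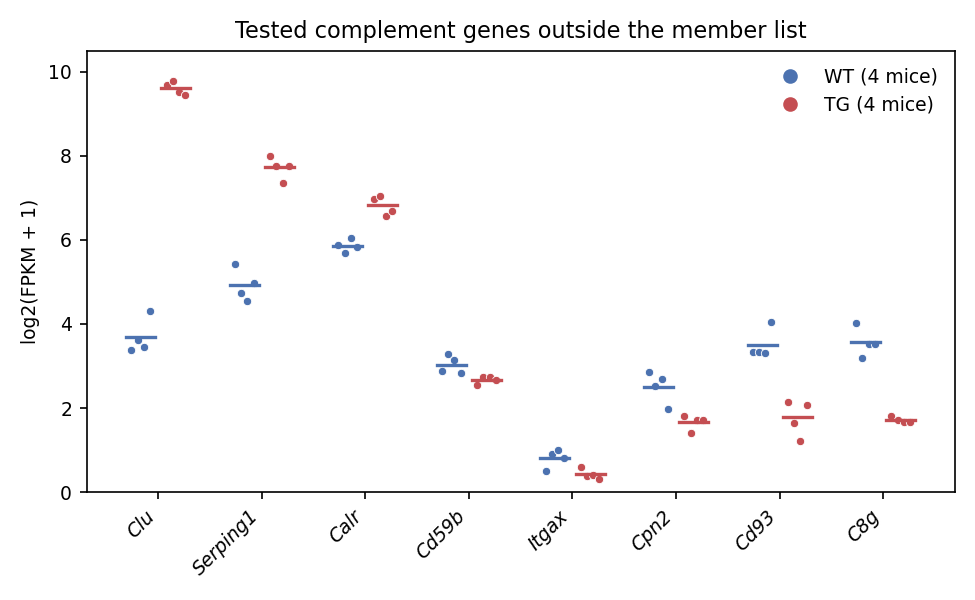
Level of the 8 tested complement genes outside the member list in each library, as log2(FPKM + 1); dots are mice (4 WT, 4 TG) and lines are group means. Clu, Serping1 and Calr lie higher in TG, C8g, Cd93 and Cpn2 lower, and the values of Itgax overlap.

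Other cells known to make complement were looked for through their markers. Of 8 hepatocyte markers 6 stayed below the filter, with sums over all 8 of 1.83 to 4.72 FPKM in WT and 0.886 to 2.19 FPKM in TG and albumin (Alb) at up to 0.485 FPKM. The 2 tested went opposite ways. Apoa2 fell from a mean of 2.80 to 0.626 FPKM (limma adjusted p = 0.00182) and Serpina1a rose from 0.276 to 0.887 FPKM (0.0257). The call of Serpina1a was lost without any one of WT 2, WT 5, TG 1, TG 3 and TG 5. The 6 mesothelial markers all stayed below it, with sums of 0.3002 to 1.34 FPKM in WT and 0.290 to 0.686 FPKM in TG. Of 10 fibroblast and progenitor markers 4 rose, 2 fell and 4 did not pass (5 and 1 when divided by all reads, 7 and 1 with voom), with sums of 338 to 499 FPKM in WT and 727 to 881 FPKM in TG. The matrix gene Dpt rose (109 ± 18.8 to 501 ± 36.9 FPKM, SD, n = 4 each) while Ly6a, a progenitor marker, fell (149 ± 46.9 to 69.8 ± 6.199 FPKM). Dcn, next to them in abundance, stood at 74.2 ± 14.3 and 58.2 ± 12.8 FPKM and did not pass (log2 change -0.35, limma adjusted p = 0.145). Only 1 of the 10 markers was called lower without any one of WT 1, TG 2, TG 3 and TG 5. C3 stood at 0.131 to 0.171 of the fibroblast sum in WT and at 0.284 to 0.338 in TG, C4b at 0.0543 to 0.0842 and at 0.746 to 1.18, and C1s1 at 0.0360 to 0.0452 and at 0.0671 to 0.0998. Each of these proportions was higher in every TG mouse than in any WT mouse. The fibroblast sum under them had means of 415 FPKM in WT and 812 FPKM in TG, and Dpt accounted for nearly all of that difference.

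Several members are neighbours in the genome. C1rl, C1ra and C1s1 lie together on chromosome 6, with gaps of 1762 and 6902 bases, and all 3 rose. The C1q genes lie on chromosome 4 with gaps of 3617 and 2852 bases, and none of the 3 passed. On chromosome 17 C2 lies 86 bases from Cfb, and C4b 65210 bases from C4a. Cr1l and Cd46 lie 5133 bases apart on chromosome 1, with levels of 4.64 ± 0.805 and 0.0991 ± 0.0786 FPKM in WT (SD, n = 4 each).

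The promoters of 4 members that rose are shown because these genes moved together and because CLCF1 signals through STAT factors. RefSeq sequences of build GRCm38.p6, running from 250 bases before to 50 bases after the annotated start, matched 25 of the 34 members by symbol; the sequences below are those of the 4 matched members with the largest rise on the log2(FPKM + 1) scale, C1ra (chr6:124512371-124512670, plus strand), Cfd (chr10:79890603-79890902, plus strand), C3 (chr17:57228087-57228386, minus strand) and C1s1 (chr6:124542310-124542609, minus strand). Capitals mark matches to TTCNNNGAA, a STAT motif, to a pair of GAAA words with 2 bases between them, an interferon response motif, or to TTGCNNAA, a C/EBP motif, each searched on both strands. Among the members without a match were C4b, Cfi and C2 (log2 changes of 4.70, 4.00 and 2.14), whose promoters were not searched. On the ratio of mean FPKM Vtn, at 5.25-fold, would stand above Cfd (4.98-fold), C1s1 (4.03-fold) and C3 (3.89-fold). The start of C1ra used here lies 216 bases inside the gene of the deposited table.
C1ra: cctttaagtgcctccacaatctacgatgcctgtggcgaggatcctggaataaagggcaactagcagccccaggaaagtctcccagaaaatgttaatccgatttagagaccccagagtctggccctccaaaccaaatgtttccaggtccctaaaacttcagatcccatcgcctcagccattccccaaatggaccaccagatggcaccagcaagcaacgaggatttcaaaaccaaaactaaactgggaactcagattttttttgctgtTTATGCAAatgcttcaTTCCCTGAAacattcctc
Cfd: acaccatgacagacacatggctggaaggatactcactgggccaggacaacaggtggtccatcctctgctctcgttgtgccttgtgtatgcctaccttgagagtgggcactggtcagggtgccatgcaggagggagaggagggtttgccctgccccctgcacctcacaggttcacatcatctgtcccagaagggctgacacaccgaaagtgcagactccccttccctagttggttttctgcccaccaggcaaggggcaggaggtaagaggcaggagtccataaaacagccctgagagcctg
C3: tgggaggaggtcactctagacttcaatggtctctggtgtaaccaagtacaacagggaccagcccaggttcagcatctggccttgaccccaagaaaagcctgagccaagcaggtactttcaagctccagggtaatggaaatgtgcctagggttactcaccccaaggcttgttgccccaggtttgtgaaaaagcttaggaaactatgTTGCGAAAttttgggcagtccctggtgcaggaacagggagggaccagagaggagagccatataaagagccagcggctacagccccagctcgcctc
C1s1: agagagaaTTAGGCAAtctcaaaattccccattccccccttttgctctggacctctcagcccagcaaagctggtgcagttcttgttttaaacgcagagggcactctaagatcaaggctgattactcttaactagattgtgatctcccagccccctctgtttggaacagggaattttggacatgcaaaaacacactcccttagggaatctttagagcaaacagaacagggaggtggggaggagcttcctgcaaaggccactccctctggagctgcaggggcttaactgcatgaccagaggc
The promoter of C1ra held a STAT match (TTCCCTGAA) and a C/EBP match (TTATGCAA), both after the start, that of C3 a C/EBP match 45 bases before the start (TTGCGAAA) and that of C1s1 a C/EBP match 242 bases before it (TTAGGCAA). These letters of the 3 motifs did not occur in the Cfd window. Among all 25 matched members the STAT motif was found in 5, of which C1ra and Vtn rose, C7 did not pass and Masp2 and Colec11 were below the filter. The C/EBP motif was found in 5 members (C1ra, C1s1, C1rl, C3 and C5ar2) and the interferon motif in 4, of which Vtn rose, Cd59a fell and Cd46 and Colec11 were below the filter. Of the 5 with the C/EBP motif 4 rose, and C5ar2 was below the filter, while 12 of the 24 tested members and 22.3% of all tested genes rose. C1ra, C1s1 and C1rl lie together on chromosome 6, and a link between motif and rise was not tested. Among all 32851 promoters, 8.30% held the STAT motif, 10.8% the C/EBP motif and 3.44% the interferon motif. A match is a description of the letters and not evidence of binding.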

How the data were processed

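RNA of brown adipose tissue from 4 WT and 4 TG mice was sequenced. The submitters' processing notes name build mm10 and, as software, featureCounts 1.5.0-p3, HISAT2 2.0.5 and bcl2fastq; the sources used here give neither strand setting nor annotation release. The authors deposited FPKM for 54532 genes, whose divisor is not defined in those sources. FPKM times gene length gave whole reads in every library (largest distance from a whole number 8.61e-09), used for depth, shares and floors. Intervals are exact Clopper-Pearson (95%) and cover counting error only. Each mouse is 1 replicate; no sample was left out, and 0 columns were unmapped.

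The test was limma 3.58.1 (R 4.3.3; eBayes with trend, two-sided) on log2(FPKM + 1) of every gene reaching 0.5 FPKM in 4 or more libraries, with Benjamini-Hochberg adjustment over all 12508 genes at 0.05. The procedure was run on simulated counts in which few genes changed and values were divided by read totals. These data differ in both respects, so that run does not test the calls given here. The members and lists were chosen with earlier results of these data known. Every member could be named, and beside them the tested complement genes outside the list, the 3 most abundant genes of each marker list and Clcf1; C8a, C8b, C1rb, Tardbp and the overlapping gene models were named after their values were seen. One complement gene of the planned list is not reported here. Exon overlap and shared stretches of 100 bases were read from GENCODE M21, where 33 of the 34 members had the deposited coordinates. Alternatives covered pseudocount, filter, scaling, variance model, threshold, a replicate block, and libraries left out. Replicate numbers 1, 2, 3 and 5 occur in both groups. Figures were drawn with matplotlib 3.10.9.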

Additional observations from a re-analysis of the deposited data

Results flagged for a closer look

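In 2 of 64 groups of 4 mice, 1 mouse lay far from the other 3 by Dixon's criterion; chance flags about 1 in 20 such groups, or 3.2 here. Cfd in WT library 5 stood at 5424 FPKM, against 2908 to 3296 FPKM in the other WT mice. Cd93 in WT library 5 stood at 15.54 FPKM, against 8.92 to 9.03 FPKM in the others. Both are values of the same WT library, which also had the largest mitochondrial read share (37.5%).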

How the results depend on the processing

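Under the 22 alternatives, 17 of the 24 tested members kept their call wherever they were tested, 11 of them higher, 1 lower and 5 not passed; the other 7 were C1qa, C1qb, C1qc, C1qbp, C5ar1, Cfp and Cr1l. The median log2 change over the tested members was 0.56 with the deposited FPKM, 0.22 with no filter, 1.19 with a filter of 5 FPKM, 0.90 with rescaling that leaves out mitochondrial, haemoglobin and the 20 most abundant genes, 0.94 with division by all recovered reads and 1.08 with voom. In the last 3, 16 members rose and 1 fell against 42 to 45% of all genes higher, with 5287, 5536 and 5629 genes higher and 1546, 1442 and 1447 lower; the median of all genes was then 0.28, 0.32 and 0.45. A filter of 5 FPKM left 1445 genes higher and 1703 lower, since fewer genes were tested. An adjusted p of 0.01 left 1796 genes higher and 1 member lower. Other complement genes called lower numbered 5, and 3 with no filter, the 5 FPKM filter, those 3 scalings, the replicate block, an adjusted p of 0.01 and without WT 2 and TG 5, where the median was 0.44. Cd59b reversed to 0.011 with division and 0.014 with voom. The cause was not tested.

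Leaving out 1 library at a time gave 11 to 14 members higher, 2 to 3 lower, 3 to 5 other complement genes lower and a median of 0.46 to 0.72, the highest without WT 5. With the replicate number as a block 2389 genes were higher and 2458 lower, and all 24 members kept their calls. Mice of equal number did not deviate together: the correlations of their deviations were -0.19, -0.17, 0.04 and -0.24, and none correlated best with its own number. Such correlations cannot show whether equal numbers share a litter or day. Depth limits the members below the filter, where a few reads decide the value.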
